A study of Saccharomyces cerevisiae with 8 samples.

Results

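Yeast cultures that had spent 4 h in TFM were set against cultures that had spent 1 h in it. The comparison used 4 of the 8 arrays of the series, namely 2 at 4 h and 2 at 1 h, and covered all 5449 annotated yeast genes, each through its probe set of highest mean. Samples were chosen by their labelled time, and no measured value entered the choice. The labels give only the abbreviation TFM, by which a nitrophenol used against sea lampreys is usually known, and that compound uncouples oxidative phosphorylation. An uncoupler carries protons across the inner mitochondrial membrane, so that respiration runs without driving ATP synthesis. Yeast grown to saturation on glucose has used up that sugar and lives mainly on the ethanol it made before, which it oxidises through acetate, the glyoxylate cycle and the respiratory chain. Such cells divide little and keep stores of glycogen and trehalose.

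All groups were strain BY4741, a haploid laboratory strain of mating type a that lacks URA3, LEU2 and MET17 and carries a partial deletion of HIS3, and they were grown to saturation at 30 °C in rich medium that held dextrose and peptone at 2% each and yeast extract at 1%. The 4 h group was 1 RNA sample read on 2 technical arrays, after 4 h in 0.05 mM TFM with 2% isopropanol, the solvent. The 1 h group was 2 RNA samples after 1 h in the same dose and solvent. The series also holds 2 RNA samples at 2 h and 2 controls at time zero, with the solvent but no TFM, which served here to estimate the spread and as context. No culture was kept in solvent alone for 1, 2 or 4 h, so a change between 1 h and 4 h cannot be divided into an effect of longer exposure and an effect of longer time in a saturated culture. Replicates are labelled biological, with no word on whether each had its own culture, and p-values therefore cover only the spread among these samples, which may be technical.

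Levels are deposited RMA values, taken to be on the log2 scale from their range, and a change is the 4 h mean minus the 1 h mean on that scale. Changes were tested with limma over all 7 RNA samples, with the 4 h sample assumed to vary like the other groups, and a gene was called higher or lower where its Benjamini-Hochberg adjusted p over all 5449 genes was under 0.05. In bulk RNA, fewer cells that carry a transcript and less transcript per cell cannot be told apart. RMA scales the arrays to each other, which hides any shift in the total amount of mRNA. The deposited values still differed at the low end, with 5th percentiles of 8 and 8.01 at 4 h and 8.39 and 8.4 at 1 h.

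Measures of the arrays as a whole were set beside the gene results. Over 17 ribosomal RNA probe sets the median was 12.18 and 12.08 on the 4 h arrays, against 10.47 and 11.77 in the 1 h samples. It was 11.43 and 13.03 in the 2 h samples and 9.76 and 9.97 in the controls, so samples of the same time could lie far apart. The dimmest decile of genes had a median level of 8.21 and 8.20 at 4 h and of 8.59 in both 1 h samples, and it lay at 8.20 and 8.40 in the controls. The low end of the 1 h arrays was thus raised, and the change of the dimmest decile had a median of -0.35, against medians between -0.09 and 0.09 in the other deciles. Genes with a mean level below 10.02, the 25th percentile of all probe sets, are called dim, and 1319 genes were dim. Control probe sets at the 3' end exceeded those at the 5' end by a mean of 1.36 and 1.30 on the 4 h arrays and of 1.35 and 1.31 in the 1 h samples. The part of these measures in the gene results was not tested.

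**Figure D1:**
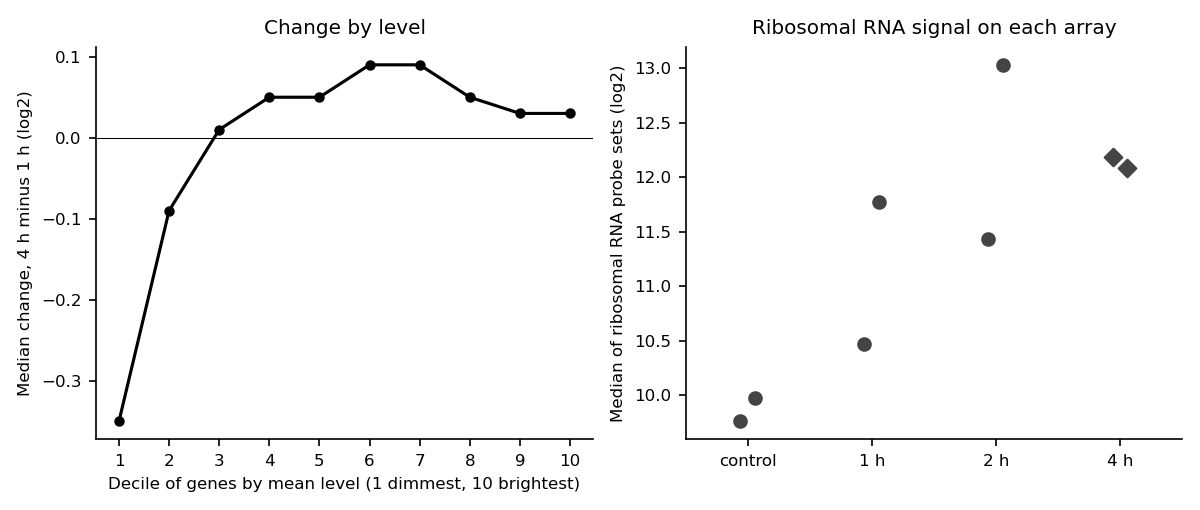
Left, the median change of each decile of the 5449 genes, 4 h minus 1 h (log2), with genes ranked by mean level from the dimmest (1) to the brightest (10). Right, the median level of 17 ribosomal RNA probe sets (log2) on each array by time, with circles for RNA samples and diamonds for the technical arrays at 4 h; the dimmest decile had a median of -0.35 and the 1 h samples lay at 10.47 and 11.77.

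More genes were called lower than higher at 4 h. limma called 174 genes higher (3.19%) and 465 lower (8.53%), or 639 in either direction (11.7%). Changes of at least 2-fold were called for 7 higher genes (0.128%) and 105 lower ones (1.93%). The median change over all genes was 0.02, and single genes ranged from -2.43 to 1.40. Of the genes called lower, 187 were dim, as were 72 of the 105 that fell at least 2-fold. Both 4 h arrays lay outside the range of the 1 h samples for every one of the 639 called genes, against 35.3% of all genes below and 38.4% above that range. The same arrays made the calls, so that count is not independent of them and adds no support.

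These counts depended on a few samples. Without either 2 h sample, whose pair had the smallest spread between samples (root mean square SD 0.085, against 0.17 at 1 h and 0.16 in controls), 7 genes were called higher and 93 lower. Without 1 h replicate 1 the counts were 649 and 678. Normalising the arrays again by quantiles gave 243 higher and 388 lower, which moved the higher share of calls to 38.5%, against 27.2% in the deposited values. A call described below as kept without a 2 h sample is one of 40, out of 150 called genes among those chosen for naming, that still passed after either 2 h sample was left out. No named and called gene changed sign under any of the 17 alternatives.

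**Figure D2:**
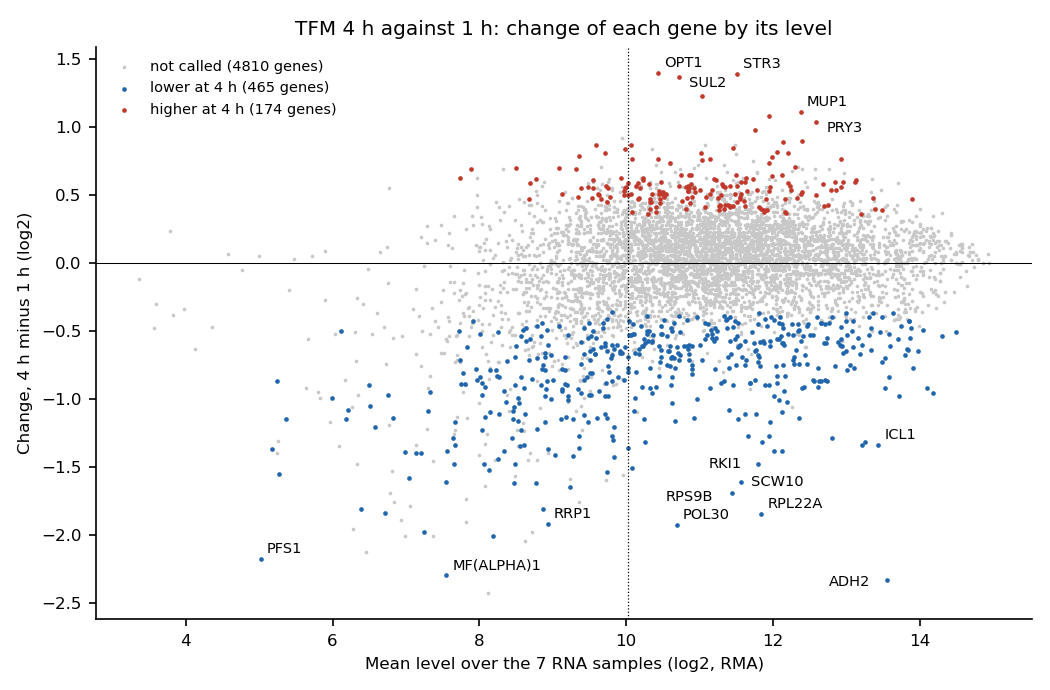
Change of each of the 5449 genes, 4 h minus 1 h (log2, vertical), against its mean level over the 7 RNA samples (log2, horizontal), with genes called higher in red, genes called lower in blue and the rest in grey. The dotted line marks 10.02, below which genes are called dim; ADH2 has the lowest change among genes above that line, -2.33, and 105 of the called changes of at least 2-fold are negative and 7 positive.

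The 187 dim genes called lower and the 278 brighter ones had different courses over the series. The dim ones had a median level of 8.64 and 8.88 in the controls, then 9.39 and 9.36 in the 1 h samples, 8.64 and 8.69 in the 2 h samples and 8.42 and 8.39 on the 4 h arrays. They were thus highest at 1 h, near the control level at 2 h and somewhat below it at 4 h. The brighter ones lay at 11.87 and 11.91 in the controls, then 11.97 and 12.03 in the 1 h samples, 11.74 and 11.64 in the 2 h samples and 11.21 and 11.22 on the 4 h arrays, so that their lowest level was at 4 h. Both 4 h arrays were below both controls for 257 of the 278 brighter genes and for 112 of the 187 dim ones, against 36.0% of all genes. Both 1 h samples were above both controls for 168 of the 187 dim genes and 149 of the 278 brighter ones, against 23.5% of all genes. Each count shares the 4 h arrays or the 1 h samples with the calls and is not independent of them. The same holds for the 1 h and 4 h medians. The shares beside the counts are over all genes, not over dim genes alone. Genes called higher had medians of 11.46 and 11.42 at 4 h, against 10.83 and 10.80 at 1 h, and at 4 h 156 of the 174 were also above both controls, against 33.7% of all genes. At 1 h 145 of the 174 were below both controls, against 32.2% of all genes.

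Among genes for using ethanol and acetate, ADH2 had one of the largest falls of all called genes. This alcohol dehydrogenase gene, which serves the oxidation of ethanol to acetaldehyde and is repressed by glucose, read 11.58 and 11.45 on the 4 h arrays, against 13.76 and 13.94 in the 1 h samples. It fell by 2.33 (SE 0.11, adjusted p = 0.0017), a 5.04-fold lower level than at 1 h. Its levels at 2 h, 13.57 and 13.56, and in the controls, 14.31 and 14.28, were all above 13, so the low level was found on the 4 h arrays alone. ACS1, an acetyl-CoA synthetase that activates acetate, read 12.28 and 12.33 at 4 h and 12.90 and 12.94 at 1 h and fell by 0.62 (SE 0.13). ACH1, a mitochondrial CoA transferase acting on acetate, read 13.83 and 13.86 at 4 h and 14.39 in both 1 h samples and fell by 0.54 (SE 0.09). ALD4 and ALD6, the main acetaldehyde dehydrogenases of mitochondria and cytosol, changed by -0.13 and -0.06 and did not pass. In all, 3 of 13 measured genes of ethanol and acetate oxidation were lower (23.1%) and 0 higher, with a median change of -0.19, and 1 was lower without a 2 h sample, when ACS1 and ACH1 had adjusted p = 0.0894 and 0.0742. ACS1 also had adjusted p = 0.068 without 1 h replicate 2.

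The glyoxylate cycle, which builds sugars from acetyl units, moved in the same direction at its defining enzymes. ICL1, isocitrate lyase, read 12.19 and 12.08 at 4 h, against 13.52 and 13.41 at 1 h, and fell by 1.34 (SE 0.10, adjusted p = 0.00391). MLS1, malate synthase, read 13.30 and 13.28 at 4 h, against 14.17 and 14.25 at 1 h, and fell by 0.92 (SE 0.10). The groups did not overlap for either enzyme, and both were also lower at 4 h than at 2 h and in the controls. SFC1, which exchanges succinate for fumarate across the mitochondrial membrane, read 12.11 and 12.07 at 4 h and 13.37 and 13.48 at 1 h. It fell by 1.34 (SE 0.10). IDP2, the cytosolic NADP-dependent isocitrate dehydrogenase, fell by 0.98 (SE 0.09), with 12.90 and 12.94 at 4 h and 13.89 and 13.92 at 1 h.

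Gluconeogenesis was split between its committed enzymes. FBP1, fructose-1,6-bisphosphatase, read 13.34 and 13.46 at 4 h, against 14.32 and 14.39 at 1 h, and fell by 0.96 (SE 0.09, adjusted p = 0.00639). PCK1, phosphoenolpyruvate carboxykinase, read 14.57 and 14.55 at 4 h and 14.55 and 14.69 at 1 h, which overlap, and its change of -0.06 did not pass (adjusted p = 0.713, 95% interval -0.29 to 0.18). The PCK1 interval does not reach the change of FBP1. MDH2 and PYC1, a cytosolic malate dehydrogenase and a pyruvate carboxylase, each changed by -0.05 and did not pass. CIT2, the peroxisomal citrate synthase of the glyoxylate cycle, changed by 0.07 (adjusted p = 0.612). Of the 10 genes of glyoxylate cycle and gluconeogenesis, 5 were lower (50.0%) and 0 higher, with a median of -0.49, and all 5 calls were kept without a 2 h sample.

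**Figure D3:**
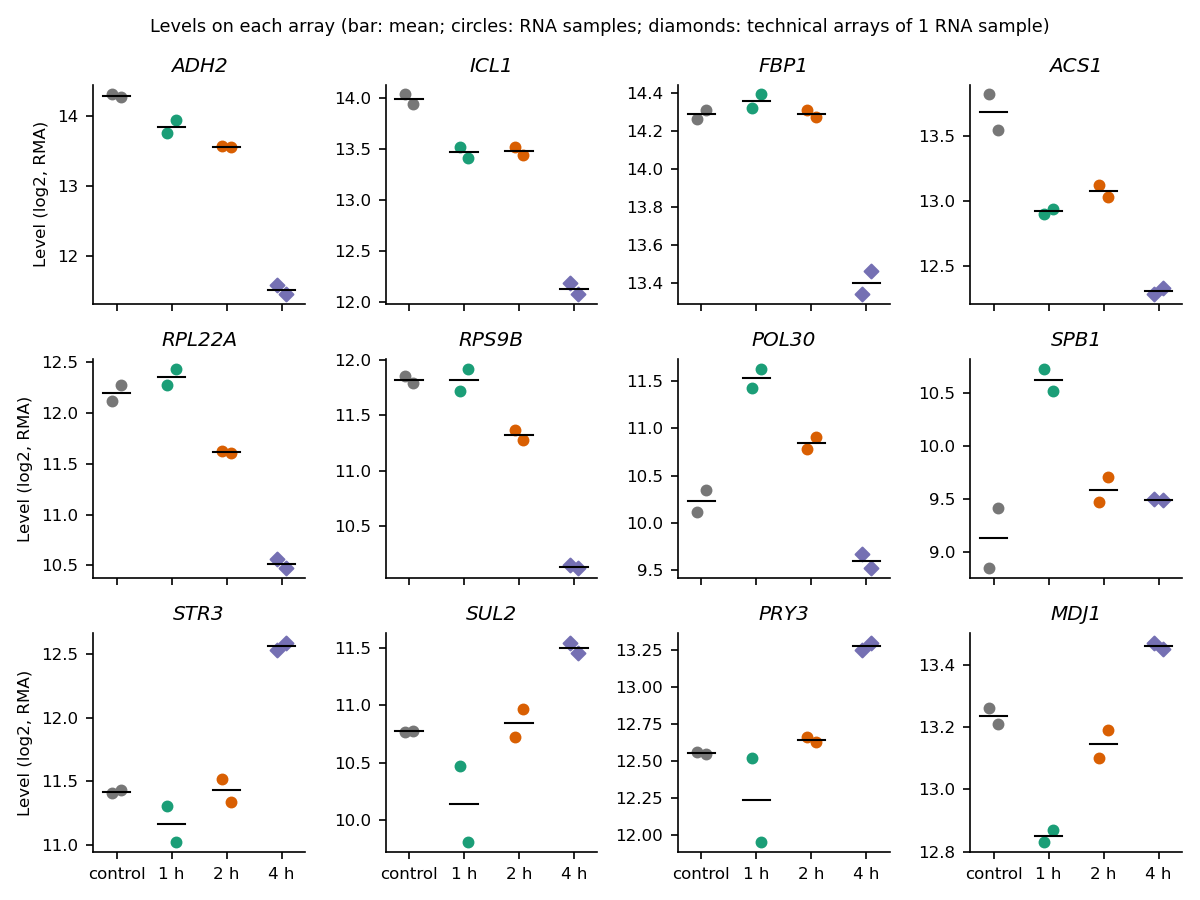
Level (log2, RMA) of 12 genes on each array by time, with circles for RNA samples, diamonds for the technical arrays of the 4 h sample and a bar at the mean of each time; the vertical axes differ between panels and do not start at 0. ADH2, ICL1, FBP1, RPL22A and RPS9B are lowest at 4 h, POL30 and SPB1 peak at 1 h, and STR3, SUL2, PRY3 and MDJ1 are highest at 4 h.

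Peroxisomes break down fatty acids by beta-oxidation. Of 17 genes of beta-oxidation and the carnitine shuttle, 6 were lower (35.3%) and 0 higher, with a median of -0.31. POT1, the thiolase of the pathway, read 11.70 on both 4 h arrays, against 12.46 and 12.36 at 1 h, and fell by 0.71 (SE 0.15). CTA1, the peroxisomal catalase, fell by 0.64 (SE 0.11), TES1, a peroxisomal thioesterase, fell by 0.59 (SE 0.12), and FOX2, the multifunctional enzyme of beta-oxidation, fell by 0.56 (SE 0.10). Both 4 h arrays were below both controls for 16 of the 17 genes, against 36.0% of all genes. At 1 h both samples were already below both controls for 13 of the 17, against 32.2% of all genes. Each count shares arrays with the calls. Without a 2 h sample 0 of the 6 calls passed, with adjusted p between 0.0681 and 0.0842 for these 4 genes, and without 1 h replicate 2 there were 4 calls. Among 25 peroxins, the proteins that build peroxisomes, PEX21 and PEX11 were lower, with changes of -0.55 and -0.49, and PEX25 was higher, with 0.48, and 0 of these 3 passed without a 2 h sample.

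The TCA cycle oxidises acetyl units in mitochondria. Of 16 genes of the TCA cycle 3 were lower (18.8%, against 8.53% of all genes), 0 were higher and the median was -0.28. ACO1, aconitase, read 13.46 and 13.43 at 4 h and 14.15 and 14.04 at 1 h and fell by 0.65 (SE 0.09). LSC1 and SDH1, subunits of succinyl-CoA ligase and succinate dehydrogenase, were lower, with changes of -0.53 and -0.43. Both 4 h arrays lay below both 1 h samples for 15 of the 16, against 35.3% of all genes. CIT1, the mitochondrial citrate synthase, was the exception, with a change of 0.00 (adjusted p = 0.979). Without a 2 h sample 0 TCA cycle genes passed, and with a prior trended on level 11 did. Of 11 genes of the retrograde response, which signals poor mitochondrial function to the nucleus, ACO1 was the only one called.

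In the respiratory chain 3 of 23 genes were lower (13.0%), with a median of -0.07. CYC1, the main cytochrome c, read 12.74 and 12.93 at 4 h, against 13.62 and 13.89 at 1 h, and fell by 0.92 (SE 0.15, adjusted p = 0.0199). NDI1 and NDE1, an internal and an external NADH dehydrogenase, were lower, with changes of -0.61 and -0.40. COX4, a subunit of cytochrome oxidase, changed by -0.25 (adjusted p = 0.156). Of 17 genes of the ATP synthase, the enzyme that an uncoupler deprives of its proton gradient, ATP19 and ATP7 were lower, with changes of -0.44 and -0.37, while ATP1, its alpha subunit, changed by -0.01 (95% interval -0.25 to 0.22). The ATP7 call rested on a narrow margin (adjusted p = 0.0498) and was lost after quantile normalisation (adjusted p = 0.0533), among other alternatives. Without a 2 h sample 0 genes of either list passed.

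Other mitochondrial genes gave few calls. In protein import 3 of 30 genes were lower, namely TIM8, TIM10 and TOM5, with changes of -0.75, -0.55 and -0.53. Among 16 mitochondrial carriers ODC1, which carries oxodicarboxylates, was lower, with a change of -0.67, and DIC1, the dicarboxylate carrier, was higher, with 0.45. Of 54 mitochondrial ribosomal proteins 1, MRPL32, was lower (1.85%), with 10.63 and 10.58 at 4 h and 11.42 and 11.64 at 1 h, and it fell by 0.92 (SE 0.12). COQ6, a monooxygenase of coenzyme Q synthesis, was higher, with 11.14 on both 4 h arrays and 10.49 in both 1 h samples (change 0.65, SE 0.09), and was the only one of 11 genes of that pathway to pass. Of these genes only MRPL32 was kept without a 2 h sample.

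Sugar pathways showed no call in the main route. Glycolysis and fermentation had 0 of 23 genes called by limma and 4 at an unadjusted p under 0.05, with a median of 0.12 and a range of -0.24 to 0.43. Without 1 h replicate 1 there were 4 calls, all higher. HXK2, the main hexokinase on glucose, changed by 0.38 (adjusted p = 0.114), and PDC1, the main pyruvate decarboxylase, by -0.06 (adjusted p = 0.644). RKI1, ribose-5-phosphate ketol-isomerase of the pentose phosphate pathway, stood out from the other 10 genes of that pathway, of which 0 passed. It read 10.51 and 10.53 at 4 h, against 11.98 and 12.03 at 1 h, and fell by 1.48 (SE 0.09, adjusted p = 0.00321), a call kept without a 2 h sample. Among 17 hexose transporters HXT4, a transporter induced at low glucose, rose by 0.77, with 13.41 and 13.31 at 4 h and 12.72 and 12.46 at 1 h. HXT10 and HXT11, both dim, were lower, with changes of -1.13 and -1.09, and were not called after quantile normalisation. HXT7, whose probe set also matches other transcripts, changed by 0.21 (adjusted p = 0.222). In all, 5 of the 17 transporters have shared probe sets, and cross-hybridisation of HXT10 and HXT11 was not tested.

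Storage carbohydrate genes had a positive median with few calls. Of 20 genes of trehalose and glycogen 2 were higher and 0 lower, with a median of 0.36. GPH1, glycogen phosphorylase, read 14.18 and 14.15 at 4 h, against 13.68 and 13.71 at 1 h, and rose by 0.47 (SE 0.09). GLG1, which primes glycogen, rose by 0.40 (SE 0.09). TPS1, the trehalose synthase subunit, changed by 0.21 (adjusted p = 0.238), and GLC3, the glycogen branching enzyme, by -0.07. The count was 12 without 1 h replicate 1 and 0 without a 2 h sample. In the glycerol list of 11 genes GPP1, a glycerol phosphatase, was lower, with a change of -0.74, a call lost under median centring and quantile normalisation (adjusted p = 0.0517 and 0.0504). GPD1 and STL1, which make glycerol phosphate and import glycerol, changed by 0.03 and -0.39 and did not pass.

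Cytosolic ribosomal proteins had many lower calls. Of 75 large-subunit genes 40 were lower (53.3%) and 0 higher, with a median of -0.47, and of 52 small-subunit genes 21 were lower (40.4%) and 0 higher, with a median of -0.40. Over the 127 genes together the median level was 12.44 and 12.56 in the controls, then 12.57 and 12.67 in the 1 h samples, 12.41 and 12.33 in the 2 h samples and 12.07 on both 4 h arrays. The 4 h level was below both 1 h samples for 111 genes and below both controls for 112, against 35.3% and 36.0% of all genes. The 4 h arrays enter both counts and the calls. The calls numbered 19 without a 2 h sample, 81 without 1 h replicate 1 and 51 without 1 h replicate 2.

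RPL22A fell the most among them, with 10.56 and 10.47 at 4 h, against 12.28 and 12.44 at 1 h (change -1.85, SE 0.12, adjusted p = 0.00321). Its levels were 11.63 and 11.61 at 2 h and 12.12 and 12.28 in the controls, so the 2 h samples lay between the other times. RPS9B read 10.15 and 10.12 at 4 h, against 11.72 and 11.92 at 1 h, and fell by 1.69 (SE 0.12). RPL24A and RPL8A each fell by 1.38. RPS3, RPS13, RPS0A and RPL27A were lower, with changes of -1.32, -1.29, -1.27 and -1.11. Of these only RPL27A was lost without a 2 h sample (adjusted p = 0.0554). Other members barely differed between the times: RPL15A changed by 0.02, RPL34A by -0.01, RPS7B by 0.00 and RPS14B by 0.06. Most ribosomal proteins have a near-identical second copy in yeast. The probe sets of 11 large-subunit and 13 small-subunit genes carry a suffix that marks probes shared between transcripts, so which copy changed is uncertain there, and cross-hybridisation of the other pairs was not tested.

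Ribosome assembly genes, which cut, modify and fold the ribosomal RNA, had lower calls too, but their course differed. Of 56 large-subunit assembly genes 18 were lower (32.1%) and 0 higher, with a median of -0.44, and of 53 genes of the small-subunit processome 14 were lower (26.4%) and 2 higher, with a median of -0.33. Over the 109 genes the median level was 9.64 and 9.75 in the controls, then 10.08 and 10.33 in the 1 h samples, 9.99 and 9.94 in the 2 h samples and 9.82 and 9.80 on the 4 h arrays. Both 1 h samples were above both controls for 88 genes, against 23.5% of all genes. Both 4 h arrays were below both controls for 27 and above both for 48, against 36.0% and 33.7% of all genes. Assembly genes thus stood high at 1 h, and at 4 h their median was near that of the controls. Ribosomal proteins were near or slightly above the control level at 1 h and below it at 4 h. Both 1 h samples were above both controls for 46 of the 127 ribosomal protein genes, so the contrast at 1 h was one of degree. Of the 109 genes 59 were dim, as were 18 of the 32 called lower, and the low end of the 1 h arrays was raised. The lower calls numbered 5 without a 2 h sample, 50 without 1 h replicate 1, 21 without 1 h replicate 2 and 20 after quantile normalisation.

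RRP1, a large-subunit assembly factor, read 7.73 and 7.83 at 4 h, against 9.77 and 9.64 at 1 h, and fell by 1.92 (SE 0.14, adjusted p = 0.00354). It is dim, and its control levels, 8.74 and 8.99, were above the 4 h arrays. SPB1, a methyltransferase of the large subunit, read 9.50 and 9.49 at 4 h and 10.73 and 10.52 at 1 h, with 8.85 and 9.42 in the controls. PUF6, an RNA-binding assembly factor, read 9.79 and 9.76 at 4 h and 10.72 and 11 at 1 h. Their changes were -1.14 for SPB1 and -1.09 for PUF6. The SPB1 call was lost with either 1 h replicate left out and the PUF6 call without 1 h replicate 2. Neither was kept without a 2 h sample. In the processome ROK1, an RNA helicase, UTP14, UTP13 and KRE33, an RNA acetyltransferase, were lower, with changes of -1.43, -1.14, -1.03 and -0.97, and all 4 are dim. CIC1 of the large subunit, also dim, fell by 1.01 and was not called after quantile normalisation (adjusted p = 0.0803). LOC1 had 1 h levels of 10.26 and 11.46, around its 4 h levels of 10.77 and 10.82, and changed by -0.07 (adjusted p = 0.931).

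The 2 processome genes called higher were NSR1 and SNU13, of which SNU13 is named after its value was seen. NSR1, the yeast nucleolin, read 10.71 and 10.75 at 4 h, against 10.06 and 10.23 at 1 h, and rose by 0.59 (SE 0.11, adjusted p = 0.0252). SNU13, which binds box C/D small nucleolar RNAs and a spliceosomal RNA, read 12.71 and 12.72 at 4 h, against 12.11 and 12.03 at 1 h, and rose by 0.65. NOP1, the fibrillarin that methylates ribosomal RNA, changed by -0.29 (adjusted p = 0.123). BUD21 and BFR2 changed by 0.00 and -0.01. Without a 2 h sample 0 processome genes were called higher.

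Of 36 genes of RNA polymerases I and III, which make ribosomal and transfer RNA, 6 were lower (16.7%) and 0 higher, with a median of -0.03, or 0.01 after quantile normalisation. RPA43, a subunit of polymerase I, read 8.57 on both 4 h arrays, against 9.97 and 10.47 at 1 h, and fell by 1.65 (SE 0.23). RPA12, also of polymerase I, and RPC17 and RPC31 of polymerase III were lower, with changes of -1.12, -0.89 and -0.86. All 4 are dim, and of them only RPC17 was lost without a 2 h sample (adjusted p = 0.0742). RPA43 had control levels of 8.66 and 9.05, so its 4 h level was below and its 1 h level above them. Among 32 translation factors PRT1, a subunit of initiation factor 3, fell by 0.86 and was kept without a 2 h sample, while CDC33, the cap-binding protein, fell by 0.45 and was not (adjusted p = 0.12). Of 18 cytosolic aminoacyl-tRNA synthetases GRS1, SES1, THS1 and TYS1 were lower, with changes of -0.59, -0.43, -0.37 and -0.37, and 1 was lower with either control left out and 0 without a 2 h sample.

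**Figure D4:**
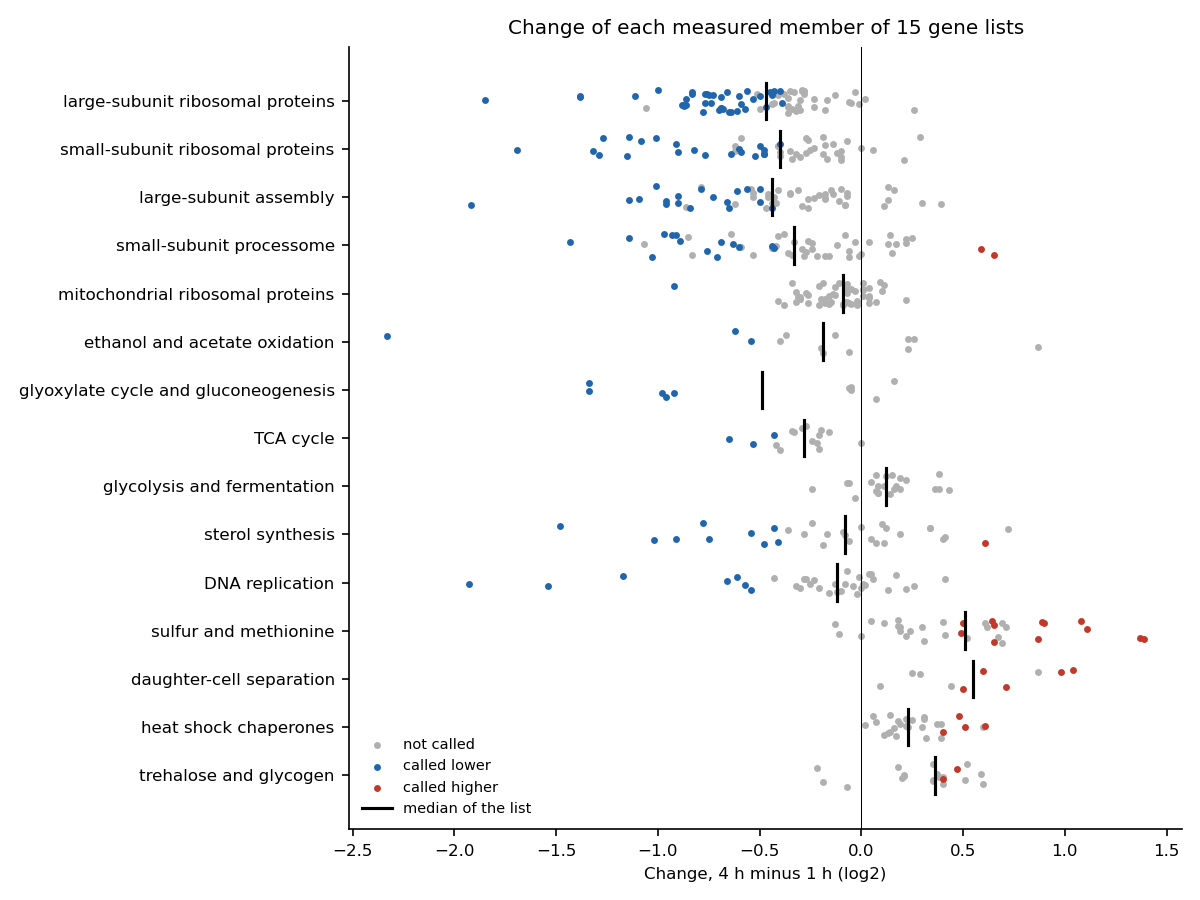
Change of each measured member of 15 gene lists, 4 h minus 1 h (log2), with 1 point a gene, members called lower in blue, called higher in red and the rest in grey, and a black bar at the median of each list. Ribosomal proteins and assembly genes lie mostly left of 0, with medians from -0.47 to -0.33, and sulfur and daughter-cell separation genes mostly right of it, with medians of 0.51 and 0.55.

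Higher calls were frequent in sulfur and methionine metabolism. Yeast takes up sulfate and methionine, reduces sulfate to sulfide, and passes sulfur between homocysteine, methionine, cysteine and S-adenosylmethionine. BY4741 lacks MET17, which joins sulfide to the carbon chain of homocysteine, so every group of the series depends on an outside source of organic sulfur. Of 34 genes 12 were higher (35.3%) and 0 lower, with a median of 0.51. The median level was 11.81 and 11.78 at 4 h, against 11.29 and 11.13 at 1 h, and both 4 h arrays were above both 1 h samples for 30 genes and above both controls for 26. Over all genes those shares were 38.4% and 33.7%. At 1 h both samples were below both controls for 22 of the 34, against 32.2% of all genes. These counts share the 4 h arrays or the 1 h samples with the calls and are not independent of them. There were 4 calls without a 2 h sample and 22 without 1 h replicate 1.

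Transporters were among the leading genes. SUL2, a high-affinity sulfate permease, read 11.55 and 11.46 at 4 h, against 10.47 and 9.80 at 1 h, and rose by 1.37 (SE 0.26, adjusted p = 0.0281). The 1 h samples of SUL2 were far apart. MUP1, the high-affinity methionine permease, read 13.09 and 13.16 at 4 h, against 12.14 and 11.89 at 1 h, and rose by 1.11 (SE 0.13, adjusted p = 0.0107). SAM3 and MUP3, permeases for S-adenosylmethionine and methionine, rose by 0.64 and 0.65. OPT1, a transporter of oligopeptides and glutathione that was in none of the lists, had one of the largest rises of all genes, with 11.40 and 11.38 at 4 h, against 10.09 and 9.89 at 1 h. It rose by 1.40 (SE 0.12, adjusted p = 0.00481), and its levels were 10.53 and 10.48 at 2 h and 10.38 and 10.26 in the controls.

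Some enzymes and 1 named regulator of the pathway passed as well, and others did not. STR3, cystathionine beta-lyase, which makes homocysteine from cystathionine, read 12.53 and 12.59 at 4 h, against 11.31 and 11.02 at 1 h, and rose by 1.39 (SE 0.15, adjusted p = 0.00802). SAM1, an S-adenosylmethionine synthetase, read 12.71 and 12.67 at 4 h, against 11.86 and 11.37 at 1 h, and rose by 1.08 (SE 0.19). MET28, a dim transcriptional activator of sulfur genes, rose by 0.87 (SE 0.11), with 10.01 and 10.11 at 4 h and 9.27 and 9.12 at 1 h. MET6, methionine synthase, read 13.74 on both 4 h arrays and 13.37 and 12.87 at 1 h, and its change of 0.62 did not pass (adjusted p = 0.0891). MET3, the ATP sulfurylase that starts sulfate reduction, changed by 0.24 (adjusted p = 0.319), and MET4, the main activator of the pathway, by 0.00 (adjusted p = 0.999). OPT1, STR3, MUP1 and MET28 were kept without a 2 h sample, while SUL2, SAM1, SAM3 and MUP3 had adjusted p between 0.0636 and 0.0817.

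Genes of daughter-cell separation, most of which are switched on in the newborn cell at the end of division, also had higher calls. Of 10 genes 5 were higher (50.0%) and 0 lower, with a median of 0.55. The median level was 13.18 and 13.17 at 4 h, against 12.73 and 12.58 in the 1 h samples. PRY3, a secreted protein of the cell wall, read 13.25 and 13.30 at 4 h, against 12.52 and 11.95 at 1 h, and rose by 1.04 (SE 0.21). SCW11, a cell wall glucanase, read 12.42 and 12.35 at 4 h, against 11.58 and 11.24 at 1 h, and rose by 0.98 (SE 0.18). DSE1 and DSE2, both daughter-specific, rose by 0.71 and 0.60, and AMN1, an inhibitor of mitotic exit named after its value was seen, rose by 0.50. CTS1, the chitinase that cuts the septum, changed by 0.25 (adjusted p = 0.125), and ASH1, a daughter-specific repressor, by 0.09 (adjusted p = 0.613). Both 4 h arrays were above both 1 h samples, and above both controls, for 9 of the 10 genes, against 38.4% and 33.7% of all genes. Both counts share the 4 h arrays with the calls and are not independent of them. There were 0 calls without a 2 h sample, with adjusted p = 0.0776 for PRY3, 0.0688 for SCW11, 0.0894 for DSE1 and 0.098 for DSE2, and 3 without 1 h replicate 2. DSE1 was at the threshold (adjusted p = 0.05) and was lost under median centring (adjusted p = 0.0608).

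Other cell wall genes moved both ways. Of 29 genes 5 were lower (17.2%) and 1 higher, with a median of 0.02, or -0.01 under median centring. SCW10, a glucanase related to mating, read 10.46 and 10.37 at 4 h, against 11.99 and 12.06 at 1 h, and fell by 1.61 (SE 0.10, adjusted p = 0.00321). GAS1 and GAS3, of a family of glucan-remodelling enzymes, were lower, with changes of -0.87 and -0.68. The other two lower genes were FKS1, a glucan synthase subunit, and CWP2, a wall mannoprotein, both named after their values were seen. PIR3, a covalently bound wall protein, rose by 0.82. CWP1, a wall mannoprotein that had been 14.10 and 13.71 in the controls, read 12.92 and 12.87 at 4 h and 12.74 and 13.06 at 1 h and did not pass. SCW10 and GAS1 were kept without a 2 h sample. In the family of PAU, TIR and DAN mannoproteins 3 of 19 were lower, PAU9, PAU3 and PAU18, with changes of -0.88, -0.80 and -0.77, and 0 were without a 2 h sample. PAU genes have near-identical copies, and the probe sets of these 3 match several, so which copy changed is uncertain.

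Genes of DNA replication were lower at 7 of 35 members and higher at 0, with a median of -0.12. That lower share was above the 8.53% of all genes. Of the 35 members 14 were dim, as were 2 of the 7 called lower, while 187 of all 1319 dim genes were lower. POL30, the sliding clamp PCNA, read 9.67 and 9.52 at 4 h, against 11.43 and 11.63 at 1 h, and fell by 1.93 (SE 0.15, adjusted p = 0.00391). Its levels were 10.78 and 10.91 at 2 h and 10.11 and 10.35 in the controls, so it was highest at 1 h and lowest at 4 h. RNR1, the large subunit of ribonucleotide reductase, read 8.59 and 8.73 at 4 h, against 10.48 and 9.92 at 1 h, and fell by 1.54 (SE 0.21). CDC45, part of the replicative helicase, and RFC5, a subunit of the clamp loader, were lower, with changes of -1.17 and -0.66. RNR1 and CDC45 are dim, and all but RFC5 of these 4 were kept without a 2 h sample (adjusted p = 0.0913). MCM7 and RNR2 changed by 0.00 and 0.01. Of 14 cyclins and cell cycle regulators CLB2, a mitotic cyclin and dim, fell by 1.11 (adjusted p = 0.0448), a call lost without either 1 h replicate (adjusted p = 0.0688 and 0.0854), and of 9 histone genes HHO1, the linker histone, fell by 0.76 (adjusted p = 0.0515 without a 2 h sample).

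Sterol genes had lower calls at several enzymes of ergosterol synthesis. Of 30 genes of sterol synthesis and transport 9 were lower (30.0%) and 1 higher, with a median of -0.08. ERG3, the C-5 sterol desaturase, read 11.42 and 11.50 at 4 h, against 12.59 and 12.36 at 1 h, and fell by 1.02 (SE 0.14, adjusted p = 0.0135). ERG4, the last reductase of the pathway, read 11.70 and 11.71 at 4 h, against 12.64 and 12.60 at 1 h, and fell by 0.91 (SE 0.09). CYB5, a cytochrome that serves sterol desaturation, and HES1, an oxysterol-binding protein, are dim and were lower, with changes of -0.78 and -1.48. ERG11, the lanosterol demethylase, changed by -0.09 (adjusted p = 0.711), and ERG9, squalene synthase, by 0.00. The gene called higher was ARE1, a sterol acyltransferase named after its value was seen, at 11.57 and 11.54 at 4 h and 11.03 and 10.86 at 1 h. Without a 2 h sample 2 genes of the list were lower, ERG3 and ERG4. In phospholipid and fatty acid synthesis 4 of 25 genes were lower and 2 higher. INO1, ELO2 and CHO1, of inositol synthesis, fatty acid elongation and phosphatidylserine synthesis, had changes of -0.73, -0.61 and -0.58. PSD2, of phosphatidylethanolamine synthesis, rose by 0.54. The remaining calls, CPT1 lower and EPT1 higher, were named after their values were seen, and the 4 genes with values here were lost without a 2 h sample. INO1 reached 12.54 and 12.55 at 2 h, above both its 4 h levels of 10.66 and 10.58 and its 1 h levels of 11.27 and 11.42.

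Chaperones were called higher at some members, and their changes were all positive. Of 27 heat shock chaperones 4 were higher (14.8%, against 3.19% of all genes) and 0 lower. The median was 0.23 and changes ranged from 0.02 to 0.61. MDJ1, a mitochondrial co-chaperone, read 13.47 and 13.45 at 4 h, against 12.83 and 12.87 at 1 h, and rose by 0.61 (SE 0.09, adjusted p = 0.0174). CUR1, a sorting factor for misfolded proteins, SSA2, a cytosolic Hsp70, and HSP78, a mitochondrial disaggregase, were higher, with changes of 0.51, 0.48 and 0.40. HSP104, the cytosolic disaggregase, changed by 0.18 (adjusted p = 0.29) and HSP26 by 0.06 (adjusted p = 0.644). The count was 0 without a 2 h sample, 8 without 1 h replicate 1, 1 without 1 h replicate 2 and 2 with either control left out.

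General stress genes had 0 of 23 calls in limma and 7 at an unadjusted p under 0.05, with a median of 0.17. The proteasome had 0 of 36 in limma and 4 unadjusted, with a median of -0.01. HSP12, a membrane stress protein, changed by 0.06 (adjusted p = 0.701), and CTT1, the cytosolic catalase, by 0.32 (adjusted p = 0.318). In the oxidative stress list of 31 genes CTA1, TRX1 and TRX3 were lower, the last 2 of them thioredoxins that each fell by 0.45. TSA2, a peroxiredoxin, changed by 0.36 (adjusted p = 0.0661). In the list of stationary phase and eisosome genes SPG1 fell by 0.87, the only call among 15, while PHM7 and FMP45 changed by 0.72 and 0.27 with SEs of 0.38 and 0.25. FPR2, an isomerase of the endoplasmic reticulum, was the only call among 13 folding genes, at -0.54. Without a 2 h sample 0 genes of these lists passed.

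Genes that deal with foreign compounds and protons were called at single members. Of 30 genes of multidrug and weak acid resistance 3 were higher and 0 lower, with a median of 0.10. That higher share was above the 3.19% of all genes, but it rested on 3 calls. PDR15, a multidrug transporter, read 13.25 and 13.21 at 4 h, against 12.66 and 12.60 at 1 h, and rose by 0.60. PDR3, a regulator of such transporters, and RSB1, which exports sphingoid bases, were higher, with changes of 0.58 and 0.54. PDR5, the main drug efflux pump, changed by 0.24 (adjusted p = 0.113), SNQ2 by 0.19 (adjusted p = 0.363) and PDR12, which exports weak acids, by -0.67 (adjusted p = 0.0879). Of 11 aryl-alcohol dehydrogenases and nitroreductases 0 were called by limma and 2 passed unadjusted, with a median of 0.21, and OYE3 changed by -0.22 (adjusted p = 0.227). PMA1, the proton pump of the plasma membrane, read 12.66 on both 4 h arrays and 13.21 in both 1 h samples and fell by 0.55 (SE 0.11), as the only call among 16 proton pump genes. It was lost without 1 h replicate 2 (adjusted p = 0.0549), and 0 of these genes passed without a 2 h sample.

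Nutrient genes moved at single members. Among 20 amino acid permeases MUP1, MUP3 and SAM3 of the sulfur list were higher and TAT1, a permease for aromatic amino acids, fell by 0.56. In nitrogen catabolite repression 2 of 25 were higher, UGA4, the permease for gamma-aminobutyrate, and UGA3, a regulator of its use, with changes of 0.51 and 0.47. In the list of other amino acid synthesis 3 of 36 were lower, ARO4, GDH1 and ASN2, with changes of -0.75, -0.64 and -0.57, and SER33 was higher, with 0.40. LYS12 was the only one of 15 genes for arginine and lysine to pass, at -0.45, and 0 of 10 branched-chain genes were called by limma and 4 passed unadjusted, with a median of -0.21. ADE17, which closes the purine ring, read 11.35 and 11.33 at 4 h, against 12.53 and 12.36 at 1 h, and fell by 1.10 (SE 0.10), and IMD3, for guanine nucleotides, fell by 0.67. They were the 2 calls among 21 purine genes. In the pyrimidine list of 11 genes the permeases FUI1 and FUR4 were higher, with changes of 0.81 and 0.47. URA7, a CTP synthase and dim, and FUR1, which converts uracil to UMP, were lower, with changes of -1.42 and -0.84.

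SIT1, which takes up iron bound to siderophores, read 11 and 10.99 at 4 h, against 12.25 and 12.07 at 1 h, and fell by 1.17 (SE 0.11, adjusted p = 0.00639). FTR1, the iron permease, fell by 0.76 and FET4, a low-affinity transporter, rose by 0.54. These were the 3 calls among 28 iron genes. SNZ3, of vitamin B6 synthesis, fell by 1.27, but its probe set matches near-identical copies, and THI73 and THI13 were lower in the same list of 19, with changes of -0.67 and -0.42. The probe sets of 3 of the 19 carry the suffix for shared probes, and cross-hybridisation of THI13 was not tested. The dim genes GIT1 and PHM6 were lower in the phosphate list of 17, with changes of -1.13 and -1.11, and PHO84, the high-affinity phosphate transporter, changed by -0.41 (adjusted p = 0.0591). In autophagy ATG41 and ATG13 were higher among 34 genes, with changes of 0.54 and 0.49. ADE17, SIT1 and SNZ3 were kept without a 2 h sample, and the other nutrient and autophagy genes named here apart from MUP1 were not.

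**Figure D5:**
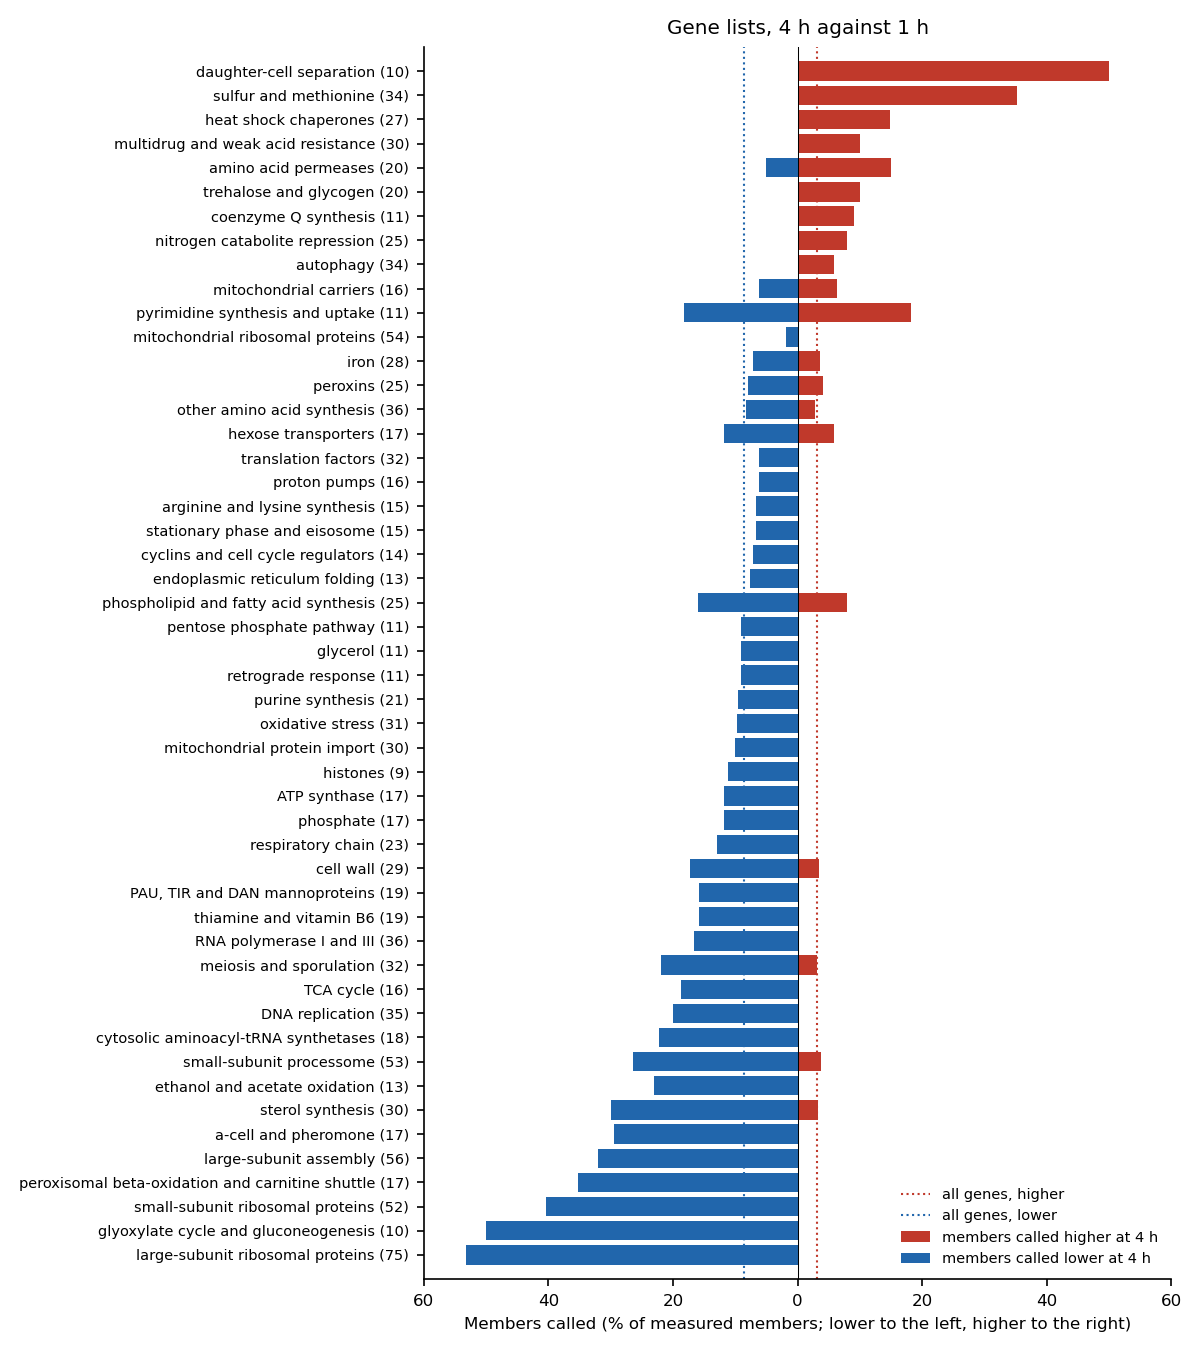
Share of the measured members of each gene list that was called lower (left, blue) or higher (right, red) at 4 h, in percent, for lists of at least 8 members with 1 or more calls; the number of members is in brackets. Dotted lines mark the shares over all genes, 8.53% lower and 3.19% higher, and the large-subunit ribosomal proteins (53.3%) and the glyoxylate cycle and gluconeogenesis list (50.0%) have the largest lower shares in this fit.

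The largest falls of all called genes included several dim ones that stood high at 1 h alone. PFS1 read 4.30 and 4.34 at 4 h, against 6.31 and 6.69 at 1 h, with 4.21 and 4.50 at 2 h, and fell by 2.18 (SE 0.33). PHO92, a reader of methylated RNA in meiosis, read 7.50 and 7.59 at 4 h, against 9.51 and 9.61 at 1 h, with 7.60 in both 2 h samples, and fell by 2.01. GAT3 and RNP1, of the GATA factors and the RNA-binding proteins, were lower, with changes of -1.84 and -1.81. For these 4 genes the 4 h level was within or close to the range of controls and 2 h samples. The unnamed reading frames YDL159W-A and YAL037C-A were also high at 1 h alone, with changes of -1.98 and -1.81. YKL068W-A was the only unnamed one called higher at 2-fold or more, with 11.99 and 12.02 at 4 h and 10.78 and 10.77 at 1 h (change 1.23, SE 0.13), and it was kept without a 2 h sample. Of the dim genes in this group PFS1 alone was kept. The part of the raised low end of the 1 h arrays in these falls was not tested.

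Meiosis and sporulation genes are normally silent in haploid cells. Of 32 genes 7 were lower (21.9%, against 8.53% of all genes) and 1 higher, with a median of -0.55. Of the 32, 29 were dim, the 7 lower ones among them. Among all 1319 dim genes 187 were lower. In the dimmest decile 111 of 545 were lower, with a median of -0.35, so the list was not shown to differ from genes of its level. SPS1, a sporulation kinase, read 7.51 and 7.67 at 4 h, against 9.0 and 9.21 at 1 h, and fell by 1.52 (SE 0.12), with 7.97 and 7.94 in the controls. GAS4, MEK1, SPS4 and SPO20, all of spore formation or meiosis, were lower, with changes of -1.09, -0.88, -0.84 and -0.69. SPO20 and GAS4 were not called after quantile normalisation (adjusted p = 0.131 and 0.0908). LDS2 changed by -0.87 (adjusted p = 0.103). The gene called higher was REC8, a meiotic cohesin named after its value was seen, with a change of 0.48. Of these calls SPS1 was kept without a 2 h sample. The whole list had median levels of 8.51 and 8.44 at 4 h and of 9.13 in both 1 h samples. Both 1 h samples were above both controls for 19 of the 32 genes, against 23.5% of all genes, and for 5 of the 7 called lower. That share is over genes of every level, whereas most of this list is dim, and the low end of the 1 h arrays was raised. After quantile normalisation the list median was -0.31 and 4 genes were lower. With genes below the 10th percentile left out 3 were lower. NDT80, the activator of middle meiotic genes, was called lower without being high at 1 h, with 8.15 and 8.19 on the 4 h arrays, 8.62 and 8.79 in the 1 h samples and 8.79 and 8.83 in the controls.

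Mating-type markers did not separate cleanly by level. MFA1, MFA2 and STE2, the a-factor and alpha-factor receptor genes of a cells, read between 11.86 and 13.00 on the 4 h and 1 h arrays. The a-cell genes STE6, BAR1, AGA2 and ASG7 were lower on the scale, at 4 h means of 10.42, 10.51, 10.74 and 10.47 and 1 h means of 10.77, 10.36, 11.10 and 10.20. The alpha-factor genes MF(ALPHA)1 and MF(ALPHA)2 and the receptor gene STE3 were dim, whereas SAG1, the alpha agglutinin, read 11.71 and 11.65 at 4 h and 11.54 in both 1 h samples. URA3, LEU2 and MET17, absent from the strain, lay between 3.51 and 6.0 on these arrays, at the bottom of the range, and 0 of the 4 genes deleted or altered in the strain were called by limma, or passed unadjusted. Of 17 a-cell and pheromone genes 5 were lower (29.4%) and 0 higher, 4 of the 5 dim. KAR4, a mating transcription factor, read 8.63 and 8.70 at 4 h, against 9.89 and 9.78 at 1 h, and fell by 1.17 (SE 0.13), a call kept without a 2 h sample. FUS2 and FUS1, of cell fusion, and FAR1, a pheromone-induced inhibitor of the cell cycle, were lower, with changes of -0.98, -0.66 and -0.58. The fifth was STE12, the pheromone-response activator, named after its value was seen. MFA2 changed by -0.09 (adjusted p = 0.602). MF(ALPHA)1 fell by 2.30 (SE 0.28), with 5.34 and 5.68 at 4 h, against 7.45 and 8.16 at 1 h, and was the only alpha-cell gene of 4 to pass.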

How the data were processed

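Expression was measured on 8 one-colour Affymetrix yeast arrays from 7 RNA samples. RNA was column-purified and made into fragmented, biotin-labelled cRNA, per the labels' protocols. The deposited values were made by the authors with RMA, per the submitters' processing notes, with no version named. They are taken as log2 from their range, the base being not given in these sources, and centring and scale were left as deposited (array medians 11.03 to 11.11). The annotation names 1 gene for 5498 of 5814 probe sets, several for 0 and none for 316, including 98 controls or reporters. Names came from the platform's annotation, with 12 symbols updated, and for 47 genes the probe set of highest mean was kept.

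The technical arrays of the 4 h sample enter as their mean, as n = 1. limma 3.58.1 in R 4.3.3 (lmFit, eBayes) fitted 4 groups over 7 samples, after a test on simulated data, with Benjamini-Hochberg adjustment over 5449 genes. The 17 alternatives were median centring, quantile normalisation, 2 filters on level, trended and robust priors, only the samples compared, each 4 h array alone, the mean of a gene's probe sets, a replicate block and leaving out each replicate. Replicate numbers were not shown to pair samples (correlations of replicate differences 0.03 to 0.19). No arrays were identical. Precision is limited by the number of arrays.

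Members and the 57 gene lists were chosen with earlier results of these data known, so they give no independent support. RPP1, of another complex, was removed from the ribosomal list after its value was seen. Genes were named by rule: the 12 largest called changes of at least 2-fold each way, the 4 lowest p each way, per list the 4 largest called changes and 2 smallest changes, and a set of chosen genes. Sequences were not used here.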

Additional observations from a re-analysis of the deposited data

Results flagged for a closer look

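Probe sets that the annotation does not pair with a gene were outside the main comparison. Of 218 such probe sets that are not controls or reporters, limma put 10 higher and 22 lower at 4 h than at 1 h. Among named genes 3.19% were called higher and 8.53% lower, so these counts are near the general rate. All 10 of the higher ones were also above both controls on both 4 h arrays, as were 156 of the 174 named genes called higher and 33.7% of all named genes. That count shares the 4 h arrays with the calls. The probe sets are given here only because they lie outside the genes tested. What transcripts they read is not analysed here.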

How the results depend on the processing

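The 174 higher calls became 284 with genes below the 25th percentile left out, 334 with a trended prior and 14 with only the samples compared, and the 465 lower calls became 241 in the last of these, which has fewer samples. Leaving out 1 sample gave between 7 and 649 higher and between 93 and 678 lower calls, the lowest without either 2 h replicate and the highest without 1 h replicate 1. Leaving out either replicate of a time gives the same fit where that time is not compared. With genes below the 25th percentile left out 365 were lower, with a trended prior 599, and the alternatives not named so far gave 157 to 255 higher and 388 to 551 lower calls. With the replicate number as a block, 220 were higher and 551 lower, and 140 of the 150 named calls kept their direction and threshold. The named calls kept numbered 143 under median centring, 136 after quantile normalisation and 76 with only the samples compared, with no change of sign. LOC1, not called, turned to 0.54 (adjusted p = 0.0464) without 1 h replicate 2 and to -0.67 without 1 h replicate 1, since its 1 h samples lie on either side of the 4 h level. No alternative replaces the missing spread between cultures at 4 h, and changes of dim genes rest on the low end of the arrays.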
